A study of Danio rerio with 9 samples.

Results

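The genes described are the zebrafish Runx transcription factors runx1 (ENSDARG00000087646), runx2b (ENSDARG00000059233) and runx3 (ENSDARG00000052826) and their shared partner cbfb (ENSDARG00000040917). They were chosen by symbol, as 4 of the 24201 genes that all libraries list, with earlier results of these data known. Single-cell RNA was read from cells with low cd41:GFP fluorescence (cd41:GFPlow), sorted from tg(cd41:GFP) zebrafish of the EK strain. Dim cells of this reporter line include blood stem and progenitor cells, and its bright cells are thrombocytes. There were 4 wild-type (WT) libraries, at 2.5, 6, 10 and 16 days post fertilization (dpf), and 5 runx1-/- libraries, with 1 at each of 2.5, 6 and 10 dpf and 2 at 16 dpf that the labels call bloodless and recovered. All runx1-/- animals carried the hg96 allele, a deletion of 8 bases in runx1. The labels give neither the number of animals per library nor a definition of bloodless and recovered. No group had a second library, so in the genotype tests below the ages stand in for repeats. Their p-values measure the spread of the genotype difference across ages and between the 2 runx1-/- libraries of 16 dpf, with spread shared over genes. In the tests of a class of cells against all other cells, the libraries are the repeats.

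Runx proteins bind DNA through their Runt domain and switch target genes on or off. The product of cbfb, core-binding factor beta, binds no DNA itself but pairs with each Runx protein and strengthens its hold on DNA. In vertebrates runx1 is needed for the first blood stem cells to leave the haemogenic endothelium, runx2 genes are known for bone and cartilage, and mouse Runx3 is known for cytotoxic T cells, other lymphocytes and some myeloid cells. In zebrafish, cbfb is known to be needed for new blood stem cells to leave the wall of the aorta. No sequence of the 4 genes is printed, because none was at hand for the build of the files.

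The 9 libraries held 30917 cell barcodes with 372790092 unique molecular identifiers (UMIs, each a counted transcript tag), from 5166313 in runx1-/- at 6 dpf to 94476178 in the recovered library. After filters 28875 cells with 352570749 UMIs were kept. The median depth ran from 4261 UMIs per cell in runx1-/- at 6 dpf to 13388 in WT at 6 dpf. The smallest libraries set the precision, since runx1-/- at 6 dpf kept only 762 cells and runx1-/- at 2.5 dpf 1162. The libraries of WT and runx1-/- at 6 dpf shared 22 of the 799 barcodes of the latter, against 0 to 12 for every other pair, so results at 6 dpf were also computed without those cells. Levels are UMIs of a gene per 1000000 UMIs of the summed cells (CPM), with exact Poisson 95% intervals that cover counting error only.

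Cells were put into classes by marker genes that include none of the 4 genes. A cell that passed the marker threshold of 1 of 12 lists was called erythroid, neutrophil, T lymphoid, endothelial or another class, and a cell past more than 1 list was called mixed. A cell past no list was called myb-positive if it held a UMI of myb, a transcription factor of blood stem and progenitor cells, and ungated otherwise. Of 1551 neutrophil cells 1499 held a UMI of lyz, the neutrophil lysozyme. Of 6805 erythroid cells 6696 held hemgn, an erythroid nuclear protein. Within this class alas2 was in 29.3% of WT and 83.8% of runx1-/- cells, and cahz in 36.8% and 94.9%. In reverse, rhag was in 95.6% of WT and 69.0% of runx1-/- cells, and nt5c2l1 in 89.3% and 74.3%. Genotype values within the erythroid class thus compare cells of unlike marker content, and the part of this in them was not tested. Among the 237 T lymphoid cells 160 held tagapa, 81 zap70 and 35 lck, both kinases of T cell receptor signalling, while 10 held cd8a and 10 cd4-1. The defining receptor gene trac is not listed in the files, and rag1, of receptor rearrangement, was in 25 of the 237 cells. By genotype, rag1 was in 24 of 185 WT and 1 of 52 runx1-/- cells and cd28 in 26 and 2, while zap70 was in 27.6% and 57.7%. At 6 and 10 dpf tagapa was also a leading gene of clusters (described below) led by ccl36.1, with fcer1g and eomesa. The one at 10 dpf had nkl.2 and nkl.4 among its leading genes too. Another cluster of 10 dpf was led by sh2d1ab and tagapa, both markers of this gate. Whether this class holds T cells alone was thus not settled. The endothelial class held only 3 WT cells in all, so it can be described in runx1-/- libraries alone. Clusters with cldn5b and the endothelial gate marker ecscr among their leading genes held 234 cells at 6 dpf, 539 at 10 dpf and 1042 at 16 dpf. The endothelial class held 339 cells over all libraries. Most cells of those clusters thus lay outside it, and their spread over the myb-positive, ungated and other classes was not counted. The B lymphoid list was passed by 1 cell.

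The 4 genes differed widely in how many UMIs they gave. Over all kept cells runx3 had 6953 UMIs in 2972 cells and cbfb 9376 UMIs in 6904 cells. By contrast runx1 had 547 UMIs in 526 cells. runx2b had 16 UMIs in 16 cells. Statements on runx1 therefore rest on at most 133 UMIs per library.

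The mutated gene itself was read first. Over all cells runx1 had 1, 68, 55 and 55 UMIs in WT at 2.5, 6, 10 and 16 dpf, and 3, 50, 133, 67 and 115 in runx1-/- at 2.5, 6 and 10 dpf, bloodless and recovered. In CPM these were 0.0365, 1.87, 1.95 and 0.698 in WT against 0.250, 9.78, 3.99, 1.48 and 1.34 in runx1-/-. Each runx1-/- library was above the WT library of its age, although at 2.5 dpf the counts were too few to separate the genotypes. The log2 ratio within an age, with a prior of 1 UMI in each library, was 2.19 at 2.5 dpf (95% interval -0.86 to 8.49), 2.40 at 6 dpf, 1.02 at 10 dpf, 1.08 in bloodless and 0.92 in recovered. Across ages the difference over all cells was 1.03 on the log2 scale (SE 0.42, edgeR quasi-likelihood test, adjusted p = 0.249) and did not pass the threshold of 0.05, while 1.18% of the 18215 genes tested did. A deletion of 8 bases need not change the number of 3' tags, so these counts do not check the genotype labels. At 2.5 dpf the near absence of runx1 in both genotypes cannot be told apart from a difference in the gene list, since the files of that age list other genes than the later ones.

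runx3 was lower in every runx1-/- library than in WT of the same age when all cells were summed. WT held 790, 1112, 1749 and 1739 runx3 UMIs at 2.5, 6, 10 and 16 dpf, and runx1-/- held 25, 24, 466, 480 in bloodless and 568 in recovered. The WT levels were 28.9 CPM (26.9 to 31.0), 30.5 (28.8 to 32.4), 62.0 (59.1 to 65.0) and 22.1 (21.0 to 23.1). The runx1-/- levels were 2.08 CPM (1.35 to 3.08), 4.70 (3.01 to 6.99), 14.0 (12.7 to 15.3), 10.6 (9.66 to 11.6) and 6.605 (6.07 to 7.17). No runx1-/- library reached the lowest WT library, and WT peaked at 10 dpf. The log2 ratios were -3.74, -2.64, -2.15, -1.06 and -1.74, so the gap was widest at 2.5 dpf. Across ages runx3 fell by 2.82 on the log2 scale (SE 0.40, edgeR adjusted p = 0.0170). That call rested on the bloodless library: without it the value was -2.85 (SE 0.48) with an edgeR adjusted p of 0.1004, and 6 genes were called in place of 215. In a sum over all cells, fewer cells of a type and less RNA per cell cannot be told apart, and the classes below address that.

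cbfb differed between the genotypes in opposite directions at different ages. WT had 1098, 663, 1504 and 2417 UMIs at 2.5, 6, 10 and 16 dpf, and runx1-/- had 163, 199, 1393, 784 in bloodless and 1155 in recovered. The level was 40.1 CPM in WT against 13.6 at 2.5 dpf, 18.2 against 38.9 at 6 dpf, 53.3 against 41.8 at 10 dpf, and 30.7 at 16 dpf against 17.3 in bloodless and 13.4 in recovered. Thus cbfb was lower in 4 of 5 runx1-/- libraries and higher at 6 dpf, and the genotypes overlapped. The WT library at 6 dpf had the lowest level of the 4 WT libraries. The difference across ages was -0.92 on the log2 scale (SE 0.31, edgeR adjusted p = 0.182) and did not pass the threshold.

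runx2b was at the edge of detection. WT had 2, 0, 2 and 7 UMIs at 2.5, 6, 10 and 16 dpf, and runx1-/- had 1, 0, 0, 3 in bloodless and 1 in recovered. A count of 0 in runx1-/- at 6 dpf allows up to 0.587 CPM (3 UMIs of the library), above the level in every other library, so no difference could be seen at this depth. Of the 16 UMIs 6 lay in ungated cells, 3 in myb-positive cells, all of them WT, and 3 in neurons. None lay in neutrophil, T lymphoid or endothelial cells. The cartilage class, where runx2 genes would be looked for, held 182 cells and 0 runx2b UMIs. At 2.5 dpf, with 74 such cells in each genotype, 0 UMIs allows up to 8.31 CPM in WT and 8.63 in runx1-/-. Both limits lie above the level in every library over all cells, so the 0 does not show absence from cartilage.

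**Figure D1:**
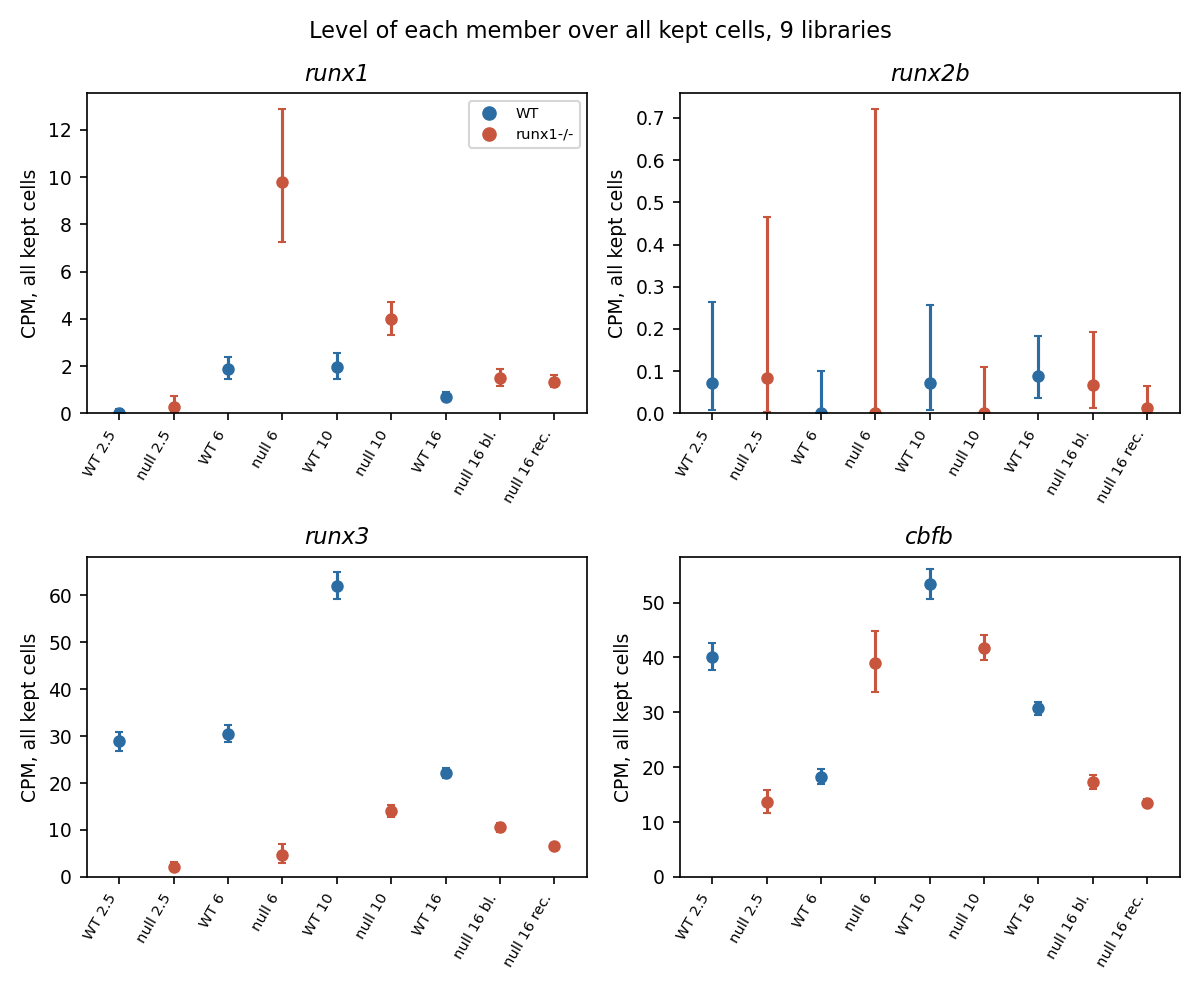
CPM of runx1, runx2b, runx3 and cbfb summed over all kept cells, 1 panel per gene with its own y axis, in each of the 9 libraries. The x axis gives genotype and age in dpf ("null" is runx1-/-, "bl." bloodless, "rec." recovered), points are CPM and bars exact Poisson 95% intervals. All 5 runx1-/- points of runx3 lie below all 4 WT points, while cbfb points of the genotypes overlap.

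The classes differed in runx3 far more than in cbfb. By the median over libraries with at least 10 cells, runx3 was highest in T lymphoid cells, at 175 CPM (148 to 336 over 6 libraries). The class called si:dkey-21e2 positive, whose markers are genes named si:dkey-21e2 or si:dkey-78l4, came next with 93.0 CPM (52.4 to 170 over 3 libraries). It reached 10 cells per library in WT alone. In runx1-/- this class held 5 cells at 10 dpf, 5 in bloodless and 9 in recovered. Neutrophils had 42.3 CPM (21.5 to 109 over 7 libraries), ungated cells 25.6 (0.648 to 105), myb-positive cells 23.8 (0 to 63.0) and macrophages 17.2 (2.63 to 33.2). The ranges of neighbours in this order overlapped, while those of T lymphoid cells and neutrophils, which are not neighbours, did not meet. The medians pool the genotypes over unlike sets of libraries. In the 4 WT libraries alone they were 63.0 CPM in ungated cells, 34.9 in neutrophils and 32.4 in myb-positive cells. Ungated cells were thus above neutrophils in WT, the reverse of the pooled order. Erythroid cells had 0.751 CPM (0 to 3.24 over 9 libraries) and endothelial cells 0 (0 to 1.83 over 4).

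Each class was then tested against all other cells of the same libraries, with the library as a block. In T lymphoid cells runx3 was higher by 2.75 on the log2 scale (SE 0.25, edgeR adjusted p = 2.8e-26), where 13.2% of genes were called. This call held under each of 14 alternatives, with values from 2.33 to 3.22. On simulated data of low spread, the test of T lymphoid cells against the rest made more false calls than its threshold allows. Its p-value rests on spread shared over genes more than on that of runx3 between the 6 libraries. Neutrophils were higher in runx3 by 1.39 (SE 0.43, edgeR adjusted p = 0.0130), where 56.2% of genes were called, so a call is common there, and it was lost without 16 dpf (edgeR adjusted p = 0.0951). The myb-positive cells were higher by 0.77 (SE 0.26, edgeR adjusted p = 0.0413, with 27.7% of genes called), a call that was lost in 9 of 14 alternatives and took the opposite sign, -0.23, when cells could belong to several classes. In erythroid cells runx3 was lower by 4.57 (SE 0.43, edgeR adjusted p = 8.0e-08, with 62.3% called), and in endothelial cells by 3.54 (SE 0.88, edgeR adjusted p = 0.00123, with 33.3% called), which without 16 dpf had an edgeR adjusted p of 0.0516.

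**Figure D2:**
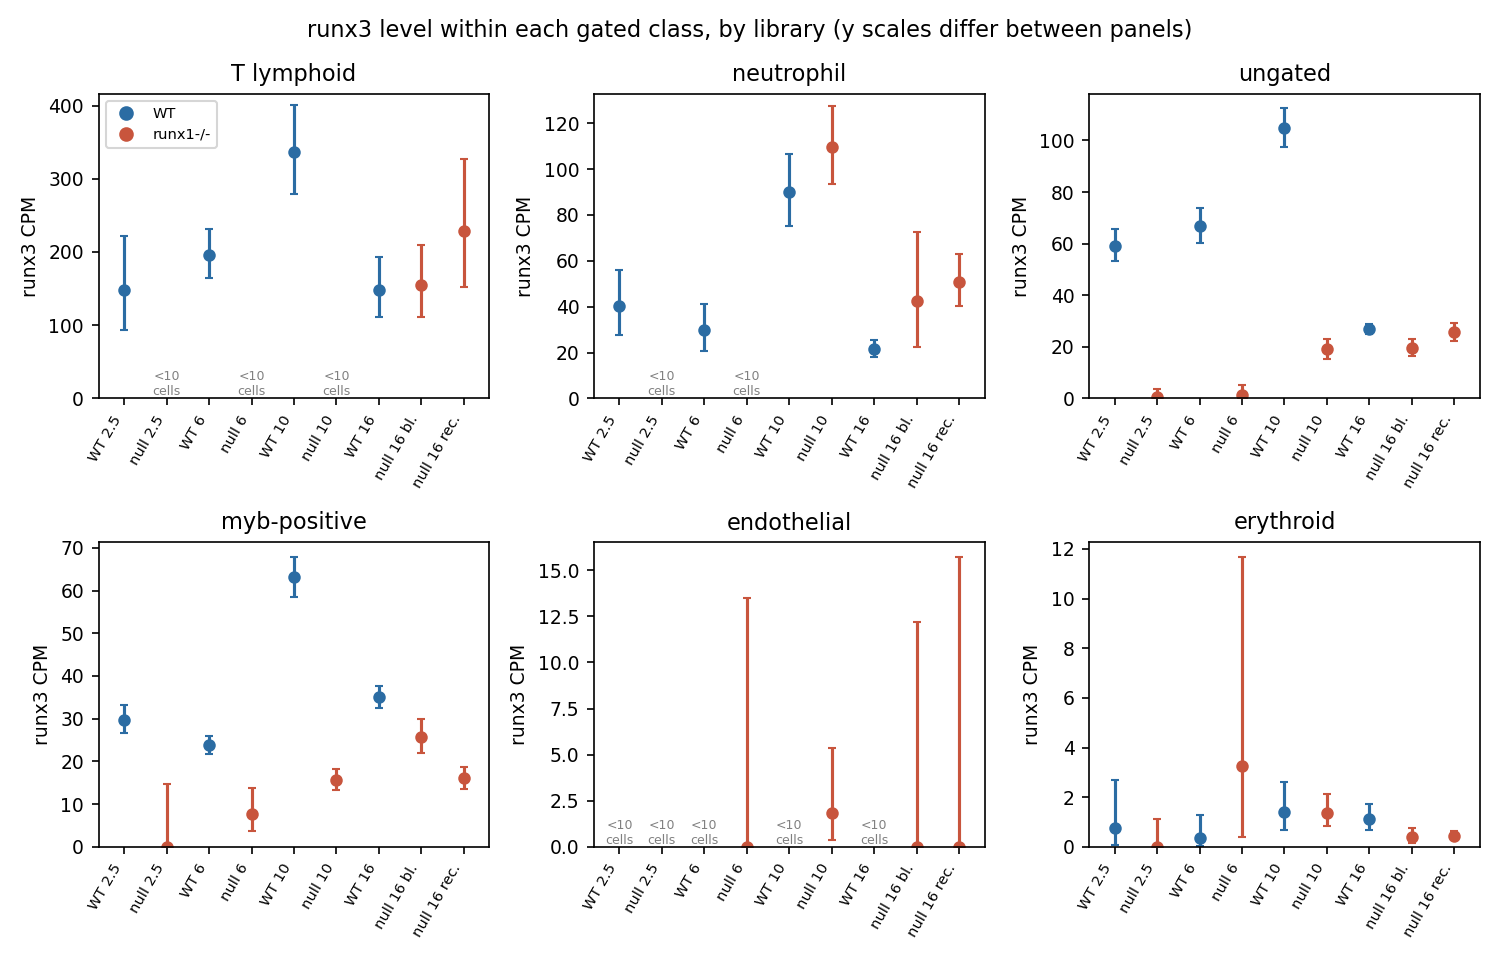
runx3 CPM in each library for the marker classes, 1 panel per class with its own y axis, with exact Poisson 95% intervals. The x axis gives genotype and age in dpf ("null" is runx1-/-), and "<10 cells" marks libraries with too few cells of the class. T lymphoid points lie between 148 and 336 CPM and erythroid points between 0 and 3.24 CPM.

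For runx1 and cbfb the order of classes was another. Over all 9 libraries the median of runx1 was 3.38 CPM in ungated cells, 2.03 in myb-positive cells (0 to 20.1) and 0.602 in erythroid cells. Endothelial cells, with 12 UMIs in 4 runx1-/- libraries, can be set only beside the other classes of those libraries. There runx1 was 11.0, 3.66, 6.61 and 4.27 CPM in endothelial cells, 20.1, 7.43, 4.55 and 4.84 in myb-positive cells and 10.7, 6.14, 2.89 and 3.38 in ungated cells, at 6 and 10 dpf, in bloodless and in recovered. These ranges overlapped, and myb-positive cells were above endothelial cells in 3 of the 4 libraries. Against all other cells runx1 was higher in myb-positive cells by 1.51 (SE 0.35, edgeR adjusted p = 0.00688) and lower in erythroid cells by 1.14 (its log2 value was -1.14, SE 0.44, edgeR adjusted p = 0.0304). Each call was lost in 3 of 14 alternatives: that in myb-positive cells without 16 dpf (edgeR adjusted p = 0.259) and with overlapping (0.123) or stricter gates (0.0567), and that in erythroid cells without 6 dpf (0.235), 10 dpf (0.192) or recovered (0.0954). The endothelial value was 0.52 (SE 0.71, edgeR adjusted p = 0.613), and it was -0.09 with stricter gates. runx1 had 0 UMIs in T lymphoid cells of every library, which allows up to 4.17 CPM in WT at 6 dpf and up to 23.6 CPM in recovered. Against all other cells its edgeR adjusted p was 0.0443, lower in T lymphoid cells, but that call was lost in 11 of 14 alternatives, and no fold is given against 0 UMIs. Of the Runx genes described here, runx3 alone was read in the same T lymphoid cells, with 410 UMIs.

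cbfb was read in every one of these classes. Its median was 100 CPM in thrombocytes (96.2 to 154 over 6 libraries), 55.4 in neutrophils, 53.6 in endothelial cells, 41.7 in T lymphoid cells, 39.8 in myb-positive cells and 13.7 in erythroid cells, and the ranges of neighbours in this order overlapped. Against all other cells cbfb was higher in neutrophils by 1.07 (SE 0.31, edgeR adjusted p = 0.00857), in myb-positive cells by 0.97 (SE 0.17, edgeR adjusted p = 0.00146) and in endothelial cells by 0.91 (SE 0.35, edgeR adjusted p = 0.0380). Erythroid cells were lower, at -0.91 (SE 0.27, edgeR adjusted p = 0.00677). T lymphoid cells did not stand apart in cbfb, at 0.18 (SE 0.29, edgeR adjusted p = 0.772). The endothelial call was lost in 5 of 13 alternatives, among them each that left out bloodless (edgeR adjusted p = 0.0638), recovered (0.0953), 10 dpf (0.0521) or 16 dpf (0.153), and the value had the opposite sign, -0.19, with stricter gates. The calls in neutrophils and myb-positive cells were lost without 16 dpf (edgeR adjusted p = 0.0743 and 0.0562), and the erythroid call without 6 dpf (0.0972) or 10 dpf (0.0699).

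The myb-positive class, the blood stem and progenitor cells of these libraries as far as 1 gene can mark them, held 775, 1274, 933 and 1516 WT cells at 2.5, 6, 10 and 16 dpf. It may also hold cells with endothelial genes that did not pass the endothelial gate, as given above. The runx1-/- libraries held 31, 183, 1205, 595 in bloodless and 1310 in recovered. In these cells WT had 338, 503, 683 and 701 runx3 UMIs, or 29.8, 23.8, 63.0 and 35.1 CPM. The runx1-/- cells had 0, 11, 165, 164 and 156 UMIs, or 0, 7.64, 15.7, 25.8 and 16.0 CPM. Each runx1-/- value was below WT of its age, but the genotypes overlapped across ages, with bloodless above WT at 6 dpf. The 0 at 2.5 dpf came from 31 cells and allows up to 11.9 CPM. The log2 ratios were -1.52 at 6 dpf, -1.998 at 10 dpf, -0.44 in bloodless and -1.12 in recovered.

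Within myb-positive cells runx3 fell by 2.17 on the log2 scale (SE 0.39, edgeR adjusted p = 0.00377), in a fit that called 8.82% of 12749 genes. It kept this call in 14 of 14 alternatives, with values from -2.56 to -1.63 and edgeR or DESeq2 adjusted p from 1.8e-07 to 0.0295. Genes of other lineages differed within the same class, with log2 values of -4.70 for mpx (a marker of the neutrophil gate), -4.72 for eomesa, -3.02 for cebpa and -2.06 for spi1b. The summed neutrophil markers of myb-positive cells were 102, 45.4, 149 and 154 CPM in WT and 7.93, 1492, 658, 39.4 and 453 CPM in runx1-/-, with 0 to 8 of the 9 markers at 0. Cells of the genotypes also lay largely in different clusters at some ages, as given below. The part of these differences in the runx3 value, and in the runx1 value that follows, was not tested. runx1 rose in the same cells, from 0, 34, 22 and 28 UMIs in WT to 0, 29, 78, 29 and 47 in runx1-/-. In CPM these were 0, 1.61, 2.03 and 1.40 in WT against 0, 20.1, 7.43, 4.55 and 4.84 in runx1-/-, and every runx1-/- library with a UMI lay above every WT library. The change was 1.72 (SE 0.42, edgeR adjusted p = 0.0268). The runx1 call was lost in 4 of 14 alternatives: edgeR adjusted p was 0.153 without 6 dpf, 0.146 without 10 dpf, 0.0603 with stricter gates and 0.156 with overlapping gates.

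cbfb in myb-positive cells showed no change that passed the test. It had 48.7, 16.9, 58.9 and 39.8 CPM in WT and 31.7, 68.0, 63.4, 34.7 and 30.04 in runx1-/-, and the genotypes overlapped. Its value was -0.29 (SE 0.34, edgeR adjusted p = 0.683), and it was 0.25 when libraries were scaled by their totals. Runx transcripts in these cells therefore differed in opposite directions while the partner gene did not pass a test in either direction. The ratio of runx3 to runx1 UMIs was 14.8, 31.0 and 25.04 in WT at 6, 10 and 16 dpf, and 0.379, 2.12, 5.66 and 3.32 in runx1-/- at 6 and 10 dpf, bloodless and recovered. The size of such a ratio depends on how well each 3' end is read, but the 4 runx1-/- ratios all lay below the 3 WT ratios. Cells with UMIs of both genes were rare, at 4, 2 and 0 myb-positive cells in WT and 1, 8, 2 and 3 in runx1-/-, in the same order of ages.

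**Figure D3:**
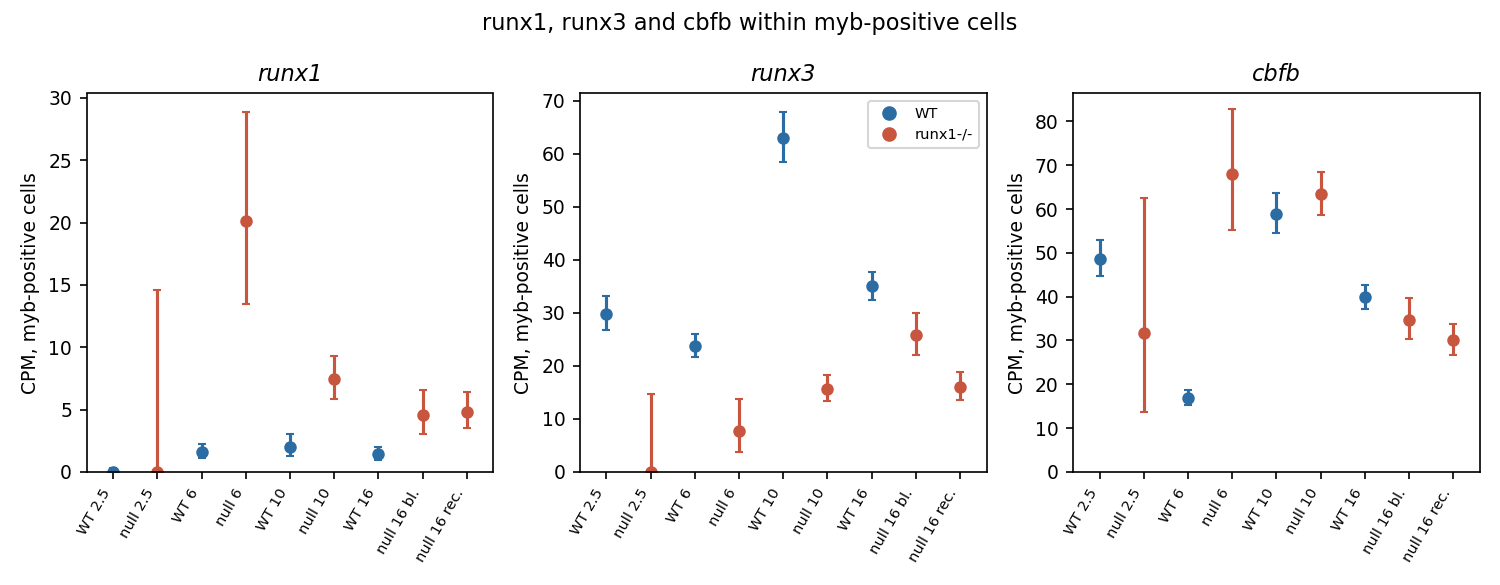
CPM of runx1, runx3 and cbfb in myb-positive cells of each library, 1 panel per gene with its own y axis, with exact Poisson 95% intervals. The x axis gives genotype and age in dpf ("null" is runx1-/-, "bl." bloodless, "rec." recovered). runx3 is lower in each runx1-/- library than in WT of its age, runx1 is higher in the 4 runx1-/- libraries from 6 dpf on, and cbfb overlaps.

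The share of myb-positive cells with a runx3 UMI gave the same order after depth was made equal. With each cell thinned to 3000 UMIs, it was 7.61, 6.56, 11.1 and 8.65% in WT and 0, 2, 3.37, 3.72 and 3.21% in runx1-/-. Without thinning it was 17.7, 14.0, 22.5 and 17.0% in WT and 0, 3.28, 6.72, 9.92 and 6.41% in runx1-/-. Between 0 and 375 cells of a library were too shallow for thinning and were left out, 375 of them in recovered. In erythroid cells, which should lack the gene, the thinned share was at most 0.730%, below the shares in myb-positive cells from 6 dpf on. The share in runx1-/- at 6 dpf rested on 3 of 150 cells, with a 95% interval of 0.414 to 5.73% that reaches this background. For runx1 the thinned share was 0, 0.567, 0.456 and 0.341% in WT and 0, 8.67, 2.98, 2.48 and 1.60% in runx1-/-.

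Neutrophils did not show the fall in runx3. WT held 79, 88, 128 and 667 neutrophils at 2.5, 6, 10 and 16 dpf, and runx1-/- held 0, 2, 176, 78 in bloodless and 333 in recovered. The WT neutrophils had 34, 35, 133 and 141 runx3 UMIs, or 40.1, 29.7, 89.9 and 21.5 CPM. The runx1-/- neutrophils had 166 UMIs at 10 dpf, 13 in bloodless and 81 in recovered, or 109, 42.3 and 50.7 CPM. All 3 of these were above WT of the same age, with log2 ratios of 0.28 (95% interval -0.05 to 0.62) at 10 dpf, 1.08 in bloodless and 1.25 in recovered. Across the 5 libraries of 10 and 16 dpf the value was 0.46 (SE 0.30, edgeR adjusted p = 0.454) and did not pass, in a fit that called 4.09% of 6085 genes. Scaling by library totals, as in the ratios, shifted the median of all genes in this class by 0.307. Within this class mpx was in 89.0% of WT and 66.0% of runx1-/- cells and cpa5 in 89.3% and 70.8%, while lect2l was in 81.7% and 86.2%. The part of this in the neutrophil values was not tested. At 16 dpf 16.9% of WT, 10.3% of bloodless and 13.8% of recovered neutrophils held a runx3 UMI, at median depths of 9795, 2768 and 3600 UMIs. With cells thinned to 3000 UMIs these shares were 5.44, 6.25 and 10.7%. cbfb in neutrophils had 55.4, 17.8, 110 and 44.7 CPM in WT and 75.8, 55.4 and 62.0 in runx1-/-, with a value of -0.30 (SE 0.30, edgeR adjusted p = 0.651) that was 0.0017 with libraries scaled by their totals.

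T lymphoid cells were few in runx1-/- before 16 dpf. WT held 13, 65, 55 and 52 of them, and runx1-/- held 0, 1, 4, 27 in bloodless and 20 in recovered. The 4 WT libraries had 23, 141, 123 and 53 runx3 UMIs, or 148, 196, 336 and 148 CPM. Bloodless had 41 UMIs, or 155 CPM, and recovered 29, or 228 CPM. At 16 dpf the log2 ratio to WT was 0.07 (95% interval -0.56 to 0.68) in bloodless and 0.65 (-0.08 to 1.30) in recovered, so neither library was separated from WT by more than the counting error. The genotypes met only at 16 dpf, and no test across ages was run. Over all ages the genotypes differed in markers within this class, as given above, and the part of this in the ratios was not tested. cbfb in these cells had 58.0, 27.8, 82.0 and 36.3 CPM in WT, 22.6 in bloodless and 47.2 in recovered.

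Erythroid cells of both genotypes, and endothelial cells of runx1-/-, held hardly any runx3. In erythroid cells WT had 0.751, 0.350, 1.42 and 1.11 CPM and runx1-/- had 0, 3.24, 1.37, 0.383 and 0.456, with 91 UMIs over 6805 cells. The value across ages was -0.82 (SE 0.65, edgeR adjusted p = 0.493), where 3.41% of 9624 genes were called. Endothelial cells of runx1-/- numbered 38 at 6 dpf, 193 at 10 dpf, 52 in bloodless and 50 in recovered, and had 0, 3, 0 and 0 runx3 UMIs. The same endothelial cells had 3, 6, 2 and 1 runx1 UMIs, or 11.0, 3.66, 6.61 and 4.27 CPM, and 62.3, 60.3, 36.4 and 47.0 CPM of cbfb. Erythroid cbfb was lower in 4 of 5 runx1-/- libraries, at 29.7, 6.998, 27.6 and 16.4 CPM in WT against 4.01, 17.8, 13.7, 10.9 and 7.76, with a value of -0.99 (SE 0.34, edgeR adjusted p = 0.132).

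The question behind the classes was whether the runx3 difference goes with a missing class of cells. T lymphoid cells, the class with the highest runx3, gave only 6.31% of the 5390 WT runx3 UMIs. Myb-positive cells gave 41.3%, ungated cells 40.1%, neutrophils 6.36% and erythroid cells 0.631%. In runx1-/- the 1563 runx3 UMIs fell to 31.7% in myb-positive cells, 30.1% in ungated cells, 16.6% in neutrophils, 4.73% in T lymphoid cells and 4.54% in macrophages. With T lymphoid cells left out, the difference over the remaining cells was -2.82 (SE 0.40, edgeR adjusted p = 0.0178), where 1.16% of 18204 genes were called, and it lost the call without the bloodless library (-2.84, edgeR adjusted p = 0.107). This fit leaves out only cells that passed the gate. Clusters led by ccl36.1, with tagapa, fcer1g and eomesa, held 264 cells at 6 dpf and 327 at 10 dpf. The cluster of 10 dpf led by sh2d1ab and tagapa held 229 cells. The gate held 65 WT and 1 runx1-/- cells at 6 dpf, and 55 and 4 at 10 dpf. Most cells of those clusters thus stayed in the fit, and their part in the difference was not tested. Leaving out each other class in turn gave values from -3.14 without macrophages (1.44% called) to -2.41 without ungated cells (0.601% called), all past the threshold. The share of genes called in the other fits of this kind was 0.998% without neutrophils, 1.12% without endothelial cells, 1.13% without epidermal or mesenchyme cells, 1.15% without si:dkey-21e2 positive cells, 1.16% without thrombocytes, 1.21% without cartilage, 1.32% without mixed cells, 1.93% without neurons and 3.22% without erythroid cells. With myb-positive cells left out the value was -2.86 (edgeR adjusted p = 0.0169, with 1.35% called). Markers of T cells were lower in each runx1-/- library too. The summed level of the T lymphoid list was 17.0, 71.8, 75.0 and 30.3 CPM in WT against 12.01, 18.98, 14.6, 29.2 and 12.01 in runx1-/-. Of its 15 genes 0 to 5 were at 0 in a library. In bloodless the list was close to WT, while runx3 was 10.6 against 22.1 CPM. Within the gate tagapa weighed most in the sum, with 782 UMIs against 113 of rag1, 108 of zap70 and 55 of lck. Single lymphoid genes differed over all cells, with log2 values of -2.98 for rag1, -2.82 for tcf7 and -2.44 for il7r. Others were -1.28 for lck, -0.81 for zap70 and 1.26 for cd4-1, and none of these passed the threshold. The part of lymphoid cells in the runx3 difference was not tested.

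A second way to ask was to give each runx1-/- library the WT level of runx3 in every marker class with at least 10 WT cells. The UMIs that would result were then counted. At 2.5 dpf 131 were expected and 25 observed, a ratio of 0.190 (0.123 to 0.281). At 6 dpf the ratio was 0.157 (0.0993 to 0.235), with 147 expected and 23 observed. At 10 dpf 1383 were expected and 463 observed, a ratio of 0.335 (0.305 to 0.367). At 16 dpf it was 0.776 (0.708 to 0.848) in bloodless and 0.752 (0.692 to 0.817) in recovered, so fewer UMIs were seen at every age than the shares of the marker classes alone would give. These intervals treat the expectation as fixed and cover counting error of the observed UMIs only. The log2 ratio that class shares alone would give was -1.40 at 2.5 dpf, 0.06 at 6 dpf, -0.49 at 10 dpf, -0.68 in bloodless and -1.33 in recovered, against observed values of -3.79, -2.62, -2.07, -1.05 and -1.74 over the same classes. The expected value at 6 dpf changed sign in 4 of 6 alternatives.

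Finer groups of cells gave other ratios. Cells of each age were also clustered without the 4 genes, into 20, 23, 24 and 31 clusters. The same count was made over clusters with at least 10 WT cells and any number of runx1-/- cells. The ratio of observed to expected runx3 UMIs was then 0.705 (0.456 to 1.04) at 2.5 dpf and 0.253 (0.141 to 0.417) at 6 dpf. It was 1.15 (1.02 to 1.28) at 10 dpf, 1.66 (1.46 to 1.88) in bloodless and 1.42 (1.28 to 1.56) in recovered. These clusters held 95.7, 72.6, 16.2, 75.1 and 80.1% of the UMIs of the runx1-/- libraries, so at 10 dpf the ratio speaks for a small part of that library. Without the barcodes shared at 6 dpf the ratio at that age was 0.272 by clusters and 0.152 by marker classes. At 2.5 dpf the marker classes put runx3 below its expectation, while the interval by clusters included 1. At 6 dpf it was below by both groupings, and in the 3 later runx1-/- libraries the groupings lay on opposite sides of 1.

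**Figure D4:**
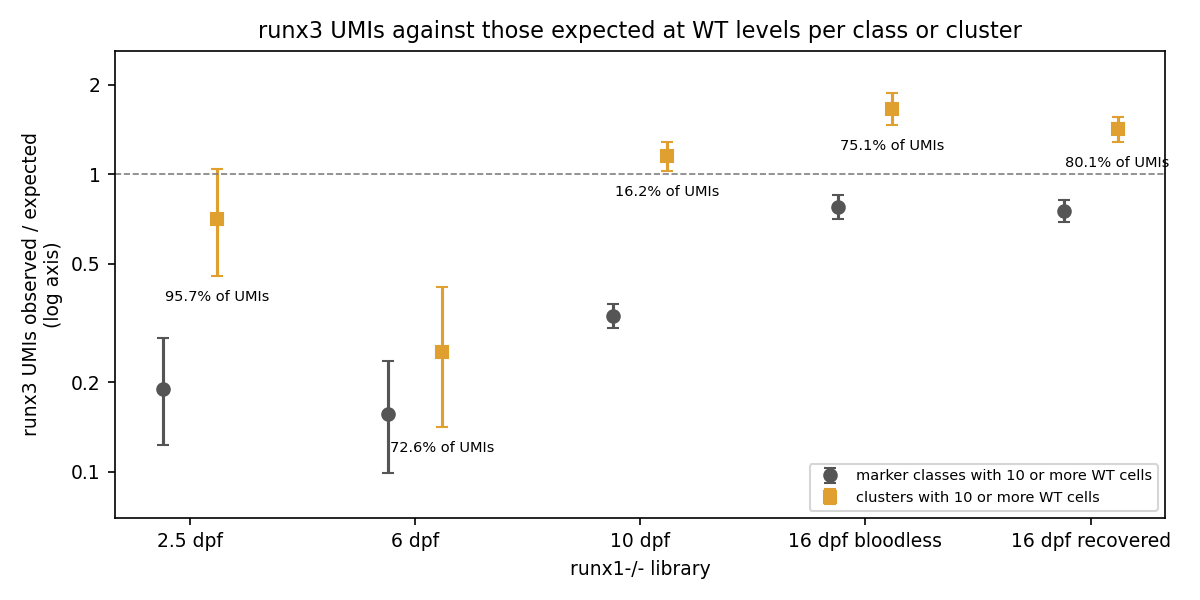
Ratio of observed to expected runx3 UMIs in each runx1-/- library, on a log axis. Every class or cluster with at least 10 WT cells is given the WT level of its age. Bars are exact Poisson 95% intervals of the observed count with the expectation held fixed, and the percentages give the share of UMIs the clusters cover. By marker classes all 5 ratios lie below 1 (0.157 to 0.776), and by clusters those at 10 and 16 dpf lie above 1 (1.15 to 1.66).

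Clusters that runx1-/- lacked held much of the WT runx3 at some ages and little at others. At 2.5 dpf the clusters with under 10 runx1-/- cells, 6 of them with at least 10 WT cells, held 1401 of 2161 WT cells (64.8%) and 759 of the WT runx3 UMIs (96.1%). At 6 dpf 10 such clusters held 1317 of 2668 WT cells (49.4%) but 433 UMIs (38.9%). At 10 dpf such clusters, 4 of them with at least 10 WT cells, held 26.8% of WT cells and 86 UMIs (4.92%). At 16 dpf 5 clusters were missing from bloodless in this way, with 52.8% of WT cells and 917 UMIs (52.7%). Those missing from recovered, 2 of them with at least 10 WT cells, held 6.35% of WT cells and 26 UMIs (1.495%). The share of WT runx3 UMIs in missing clusters was thus above the share of WT cells there at 2.5 dpf, close to it for bloodless, and below it at 6 and 10 dpf and for recovered. In the other direction, 81.2% of the runx1-/- cells at 10 dpf lay in clusters with under 10 WT cells, and a cluster mostly of 1 library may be that library and not a type of cell.

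Single clusters, named here by their leading genes, show both cases. At 2.5 dpf a cluster led by si:dkey-21e2.15 held 166 WT cells with 375 runx3 UMIs (201 CPM) and no runx1-/- cells. A cluster of the same age led by si:ch211-161c3.6, with the transcription factor genes gfi1aa and cebpa among its leading genes, held 481 WT cells with 43.8 CPM and 2 runx1-/- cells. At 6 dpf a cluster led by rrm2, a subunit of the enzyme that makes DNA building blocks, had 107 CPM in 100 WT cells and 4.52 CPM, from 1 UMI, in 29 runx1-/- cells. A cluster of that age led by zgc:153317 had 71.9 CPM in 344 WT cells and 11.1 CPM in 37 runx1-/- cells, from 2 UMIs. In these 6 dpf clusters both genotypes had cells and runx3 was lower in runx1-/-.

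Other clusters, picked like those above after their values were seen, had more runx3 in runx1-/-. At 16 dpf the si:dkey-21e2.15 cluster had 100 CPM in 459 WT cells, 415 in 20 bloodless cells and 294 in 38 recovered cells. The lyz cluster of 16 dpf had 17.6 CPM in 435 WT cells, 233 in 13 bloodless cells and 93.0 in 110 recovered cells. A cluster led by CU571382.1, with spock3 and s1pr4 among its leading genes, held 3 WT cells but 237 bloodless cells with 329 CPM and 258 recovered cells with 238 CPM. A cluster led by tcf12 and tcf15, a pair of helix-loop-helix factors, held 1684 WT cells with 40.0 CPM, 1 bloodless cell and 49 recovered cells with 267 CPM. Of the clusters with at least 10 cells of both genotypes, the WT interval lay wholly above that of runx1-/- in 0 of 10 at 2.5 dpf, 3 of 11 at 6 dpf, 3 of 11 at 10 dpf, 1 of 17 in bloodless and 1 of 20 in recovered. The runx1-/- interval lay wholly above in 0, 0, 1, 3 and 4 of them. Whatever the intervals, the runx1-/- level was higher in 3 and lower in 6 of these clusters at 2.5 dpf, 3 and 6 at 6 dpf, 5 and 4 at 10 dpf, 6 and 6 in bloodless, and 9 and 8 in recovered, and the rest had 0 UMIs in both. The shared clusters thus held no single direction from 10 dpf on.

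**Figure D5:**
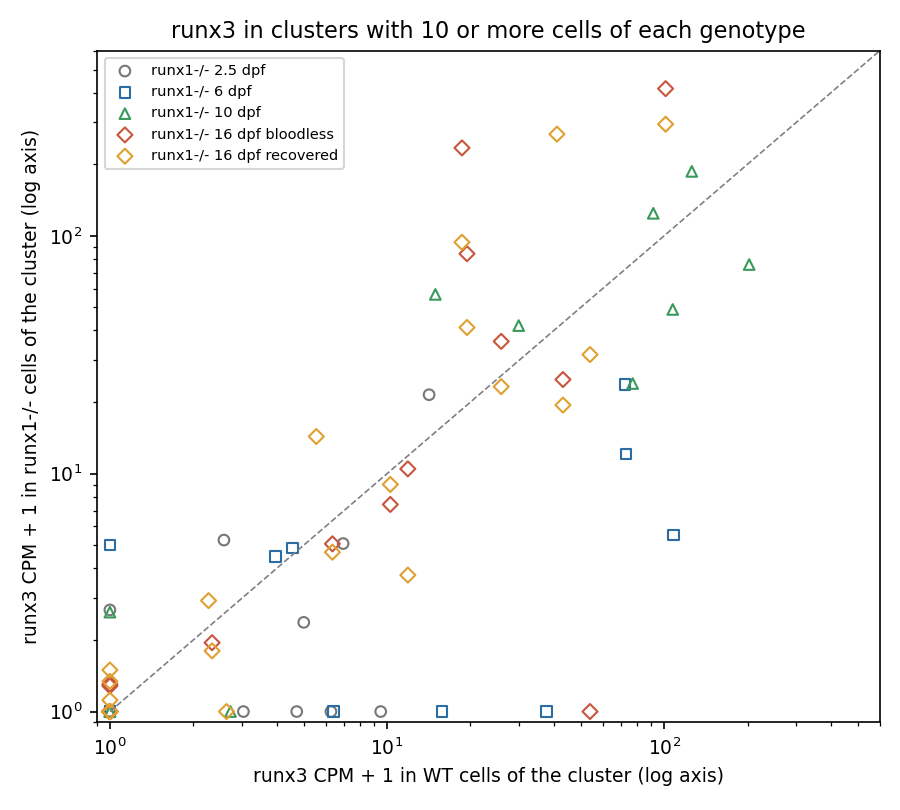
runx3 level of each cluster with at least 10 cells of both genotypes, as CPM + 1 on log axes. WT is on the x axis and runx1-/- on the y axis, in 1 panel where color marks the runx1-/- library. The dashed line marks equal levels. At 6 dpf the 3 clusters whose intervals do not meet lie below the line, and in bloodless and recovered 3 and 4 clusters lie above it in that way.

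Ungated cells were not tested between genotypes. Their runx3 level was 59.2, 66.9, 105 and 26.8 CPM in WT and 0.648, 1.42, 18.99, 19.6 and 25.6 CPM in runx1-/-, lower in 5 of 5 libraries. In recovered the interval overlapped that of WT (22.3 to 29.2 against 24.8 to 28.8 CPM). In runx1-/- at 2.5 dpf 18 of the 25 runx3 UMIs lay in 70 macrophages, a class in which WT of that age had 7 UMIs in 42 cells. The macrophage level was 21.0 CPM in runx1-/- against 11.6 in WT, and the intervals overlapped. Macrophage runx3 did not order the genotypes elsewhere either, with 17.2 CPM in bloodless and 30.02 in recovered against 33.2 in WT at 16 dpf.

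Myb-positive cells with a runx3 UMI differed from those without in other genes, given here as a description because runx3 chose the cells. The level of il7r, the interleukin 7 receptor of lymphoid cells, was 6.77, 20.8, 11.5 and 6.99 CPM in WT cells with a runx3 UMI, and 0.636, 0.107, 0.361 and 0.664 CPM in those without. In runx1-/- il7r was 16.7 CPM at 10 dpf, 51.2 in bloodless and 13.2 in recovered with a runx3 UMI, against 0, 1.82 and 0.653 without. The reverse held for tal1, a transcription factor of blood stem cells and the erythroid line, at 32.3, 19.1, 37.0 and 7.57 CPM in WT with a runx3 UMI and 162, 184, 123 and 51.1 without. In runx1-/- tal1 was 65.2, 24.1 and 99.8 CPM with a runx3 UMI and 183, 226 and 225 without. The cells with a runx3 UMI numbered 137, 178, 210 and 258 in WT and 81, 59 and 84 in these runx1-/- libraries, and a UMI is more often caught in deeper cells.

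Over 43 sums of a class in a library, the genes whose log2(CPM + 1) was most like that of runx3 were grap2a (Pearson r 0.957), ccr9a (0.933), agap2 (0.888), ptpn6 (0.884) and arhgap4a (0.882). For runx1 they included hhex (0.805), cacnb3a (0.804), dusp4 (0.803) and sh3bp4 (0.799). For cbfb they were rhoaa (0.890), rbm14b (0.869), iqgap1 (0.861), cmip (0.854) and dtnba (0.851). These are descriptions over 16417 genes, and sums of one library share its depth and its animals. ccr9a encodes a chemokine receptor, ptpn6 a phosphatase of blood cells and hhex a homeobox factor.

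Other genes of the pathway were read from lists drawn up with earlier results of these data known. The first list held 25 genes, namely the Runx gene runx2a and genes of proteins that pair with or assist Runx factors. Of the 25 genes 23 were listed, and 22, runx2a not among them, could be tested over all cells. Of these 0 rose and 1 fell, against 0.439% and 0.741% of all genes: tle3b, a Groucho-type corepressor, changed by -1.95 (SE 0.37, edgeR adjusted p = 0.0425). At an unadjusted p under 0.05 edgeR had 1 higher and 2 lower, and DESeq2 called 0 higher (5.09% of all genes) and 1 lower (3.54%). The median of the list was -0.22 against 0.07 over all genes. Within myb-positive cells tle3b fell by 2.33 (edgeR adjusted p = 0.00161) and runx1t1, a corepressor known from the human RUNX1 fusion of leukaemia, rose by 1.25 (edgeR adjusted p = 0.0356), 1 and 1 of 18 against 4.29% lower and 4.53% higher of all genes.

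Another list held 30 genes bound or regulated by Runx factors in mammalian blood. Whether Runx factors regulate them in these zebrafish cells was not tested. Of the 30 genes 29 were listed and 27 tested over all cells. Among those 3 fell and 0 rose, where 0.741% of all genes fell and 0.439% rose, with a median of -1.28 against 0.07. At an unadjusted p under 0.05 edgeR had 12 lower and 1 higher, and DESeq2 called 11 lower and 1 higher, against 3.54% and 5.09% of all genes. They were cebpa (-2.93, SE 0.34, edgeR adjusted p = 0.00828) and cebpb (-2.35, SE 0.35, edgeR adjusted p = 0.0205), transcription factors of granulocytes, and mpx (-2.82, SE 0.51, edgeR adjusted p = 0.0366), the neutrophil peroxidase. Within myb-positive cells 5 of 21 fell and 1 rose, where 4.29% of all genes fell and 4.53% rose, while the median was -0.10 against -0.05. Those that fell were mpx (-4.70), cebpb (-3.45), eomesa (-4.72), cebpa (-3.02) and spi1b (-2.06), and ccl19a.1, a chemokine gene, rose by 3.50. ccl19a.1 was also a leading gene of the 16 dpf cluster led by CU571382.1, which, as given above, held few WT cells. The part of such cells in its rise was not tested. Some genes tested here also set the classes. A myb UMI chose the myb-positive cells, and mpx, lck, zap70, mpl and itga2b are markers of gates that these cells did not pass. The values of these genes within the class are thus partly set by the gates. In neutrophils 0 of 9 genes of this list, among them the gate marker mpx, and 0 of 13 cofactors passed with edgeR (3.01% of all genes higher, 1.08% lower) or DESeq2 (3.93% and 1.4%). Each list had 1 higher and 1 lower at an unadjusted edgeR p under 0.05. In erythroid cells 0 of 9 genes of this list rose and 3 fell with edgeR, namely myb (-3.02), cebpa (-3.16) and cebpb (-3.61), where 1.21% of all genes were higher and 2.2% lower. There DESeq2 called 2 of them higher and 4 lower, where it called 7.08% of all genes higher and 7.55% lower, and edgeR had 2 higher and 4 lower at an unadjusted p under 0.05. Of 17 cofactors in erythroid cells 0 passed with edgeR, against 1 higher and 5 lower at an unadjusted p under 0.05, and 1 higher and 2 lower with DESeq2. Erythroid cells and neutrophils of the genotypes differed in markers, as given above, and the part of this in the values of these classes was not tested.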

How the data were processed

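The deposited values are raw UMI counts in whole numbers, not normalized, for each gene in each barcode, per the file headers. Libraries were made with the Chromium version 3 kit for 3' ends, per the labels' protocols, and the submitters' processing notes name Cell Ranger 2.0.2 and GRCz10, while the headers of the 6 and 16 dpf matrices give software version 3.1.0. Genes listed number 26586 at 2.5 dpf and 26573 later, and the smallest barcode held 2907 UMIs at 2.5 dpf against 500 to 505 later. Age was a term in each test across ages.

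The members, marker lists, gene lists and tests were chosen with earlier results of these data known. Cells had to hold at least 500 UMIs and 200 genes, with mitochondrial UMIs at 20% or less, and 29994 passed. Scrublet (scanpy 1.11.5) called 236 doublets by its own threshold and 0 in WT at 16 dpf, so the highest scores of each library were removed in its place, at 0.8% per 1000 cells, 1119 in all. Counts were summed per library and class, for libraries with at least 10 cells of it, and tested with edgeR 4.0.16 in R 4.3.3 (TMM, filterByExpr, quasi-likelihood, Benjamini-Hochberg over all genes tested, threshold 0.05), with age plus genotype, or with the library as a block plus class. Standard errors are the log2 value divided by the root of F. Within an age, log2 ratios use a prior of 1 UMI and conditional binomial 95% intervals, and a count of 0 allows 3 UMIs. Clusters came from scanpy's Leiden method (igraph 0.11.9), without the 4 genes. Named genes were the members, the 5 most correlated genes of each (1 of those of runx1 is not reported here), and list genes past the threshold over all cells. The list genes within classes, the clusters given singly, and il7r and tal1 were named after their values were seen. The fits were tested on simulated data, where the test of T lymphoid cells against the rest made more false calls than its threshold allows when the spread was low. Alternatives were DESeq2 1.42.0, other scaling, filters and gates, and leaving out libraries or ages.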

Additional observations from a re-analysis of the deposited data

Results flagged for a closer look

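Over all cells cbfb moved in opposite directions at different ages: the log2 ratio of runx1-/- to WT was -1.55 at 2.5 dpf, 1.102 at 6 dpf, -0.35 at 10 dpf, -0.83 in bloodless and -1.19 in recovered. The difference between ages was not tested, because there was 1 library per group. The 1 positive ratio was taken against the WT library with the lowest cbfb, at 18.2 CPM where WT reached 53.3. That WT library of 6 dpf was also the lowest of WT in myb-positive (16.9 CPM), neutrophil (17.8), erythroid (6.998) and T lymphoid cells (27.8). An effect of age on the genotype difference thus cannot be told apart from a low level in that library. The 95% counting intervals of these ratios (-1.81 to -1.32, 0.86 to 1.33, -0.46 to -0.25, -0.95 to -0.71 and -1.30 to -1.09) all exclude 0.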

How the results depend on the processing

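No paired analysis was possible because each group has 1 library and the labels give no replicate numbers; age, which both genotypes share, was a term in each genotype fit. The runx3 difference over all cells kept its direction in 12 of 12 alternatives and its call in 11; leaving out single libraries or ages gave -3.33 to -2.50, with -2.85 without bloodless and -2.88 without recovered, and outside T lymphoid cells -3.32 to -2.48, with -2.84 and -2.89. Scaling by library totals shifted the median of all genes by 0.461 over all cells and 0.562 within myb-positive cells. It also turned the 80 higher and 135 lower calls (37.2% higher) into 208 and 97 (68.2% higher). The 215 genes called became 1420 with DESeq2 (58.9% higher), 778 with no filter (47.8% higher), 89 without 10 dpf, 83 without 16 dpf, 120 without 6 dpf, 141 without barcodes shared at 6 dpf (chosen after seeing the data), 6 without bloodless and 82 without recovered. Signs turned for cbfb in T lymphoid cells (-0.21, overlapping gates) and endothelial cells (-0.19, stricter gates), runx1 in endothelial cells (-0.090, stricter gates), runx3 in myb-positive cells against the rest (-0.23, overlapping gates), cbfb within myb-positive cells (0.25 with library totals, 0.18 without 16 dpf) and cbfb within neutrophils (0.0017, library totals). The log2 ratio that composition alone gives was, at 6 dpf, -0.13 by shares of cells, -0.010 with stricter gates, -0.24 with overlapping gates and -0.93 by clusters. By clusters (chosen after seeing the data) it was -3.22 at 2.5 dpf, -0.32 at 10 dpf, -2.29 in bloodless and -2.38 in recovered. By shares of cells it was -0.088, -0.27 and -0.61 at 10 dpf, in bloodless and in recovered, with stricter gates -0.55 in bloodless and -1.18 in recovered, and with overlapping gates -0.70 at 10 dpf and -1.03 in recovered. The cause was not tested. Depth limits runx1 and runx2b most.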
